A study of Mus musculus with 26 samples.

Results

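The genes described here encode the proteins of the cytosolic ribosome. Members were chosen by symbol: every gene whose symbol begins with Rpl or Rps followed by a digit, together with Rplp0, Rplp1, Rplp2 and Rpsa, leaving out the ribosomal protein S6 kinases (Rps6k) and symbols containing "-ps". This gave 83 of the 13765 genes in the deposited table, and 81 of them were among the 9106 genes tested. Of the 83, 76 encode structural proteins (42 of the large subunit, 31 of the small subunit and 3 of the stalk), 6 are paralogs by symbol (Rpl3l, Rpl7l1, Rpl22l1, Rpl36al, Rps27l and Rps4y2, now named Rps4l) and 1, Rps19bp1, encodes a protein that binds Rps19. Rpl7l1 is a factor of ribosome assembly.

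Polyadenylated RNA was sequenced from cells sorted as viable, CD4+ and CD8b+ with no surface T-cell receptor, which the labels call double positive (DP), a stage of T-cell development. The donors were 8-week-old females of the C57BL/6J strain, with no treatment or altered allele in the labels, and the cells came from their thymus, mediastinal adipose tissue or aortic arch. Tissue of 5 mice was joined in a pool, with 4 pools per tissue, and the pool is the replicate (n = 4). Arch and adipose tissue were enzymatically digested and the labels do not say so for thymus, so tissue and digestion cannot be told apart. Each library held the RNA of 200 cells after 18 cycles of amplification, and the deposited columns hold 1 value per pool.

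A ribosome joins a small subunit, which reads the messenger RNA, to a large subunit, which forms the peptide bond, and each subunit is assembled from ribosomal RNA and about 1 copy of each of its proteins. The messenger RNAs of these proteins are among the most abundant of a growing cell and begin with a 5′ terminal oligopyrimidine (TOP) tract, through which the growth-regulating kinase mTOR controls their translation. Thymocytes proliferate before and on entry into the DP stage and then become small, resting cells.

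Across the libraries the members stood higher in the aortic arch than in the thymus, and about level between adipose tissue and thymus. Their share of all recovered reads was 5.78%, 7.10%, 6.47% and 5.83% in thymus pools 1 to 4. In adipose pools 1 to 4 it was 6.23%, 6.64%, 7.14% and 5.71%. In arch pools 1 to 4 it was 7.24%, 8.70%, 6.42% and 9.47%. All 4 adipose pools lay within 0.1 percentage points of the thymus range, 3 arch pools lay above every thymus and adipose pool, and arch pool 3 lay inside the thymus range. The means were 6.29% ± 0.621 (SD, n = 4) for thymus, 6.43% ± 0.605 for adipose tissue and 7.96% ± 1.38 for arch. These are relative abundances: fewer cells of a type and less RNA per cell cannot be told apart in such pools.

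**Figure D1:**
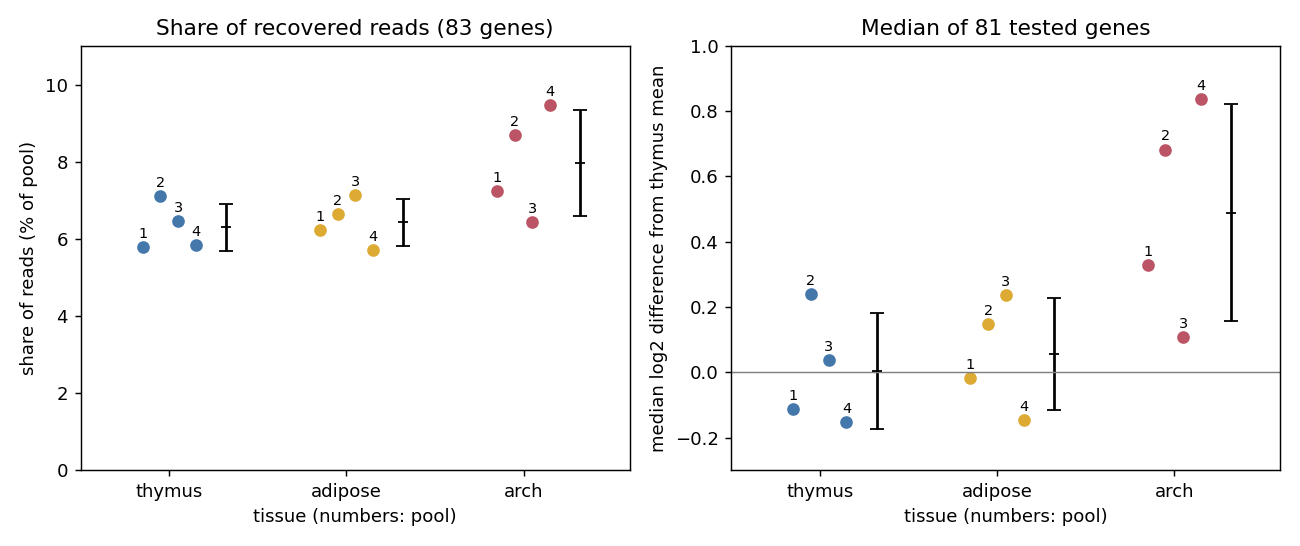
Left, the percentage of a pool's recovered reads that fell on the 83 ribosomal protein genes; right, the median over the 81 tested genes of the log2 difference from the thymus mean. Each point is a pool, numbered as in the text, and bars are the mean ± SD of 4 pools; arch pools 2 and 4 are highest in both panels, at 8.70% and 9.47% on the left.

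Before the single genes, the pools themselves need describing. Recovered reads per pool ranged from 13473516 to 34599519 in thymus, from 14279190 to 33540294 in adipose tissue and from 11577253 to 26551456 in arch. Arch pool 2 (5788626 reads per library), thymus pool 3 (6736758) and arch pool 4 (7145620) were the shallowest per library. The sort markers were present in all pools, and 10 DP thymocyte genes summed to between 18269 and 21648 CPM (counts scaled to a common library total) in thymus, 5881 and 12889 in adipose tissue and 7698 and 8372 in arch. Of these 10, 5 were lower in arch and 6 in adipose tissue than in thymus. Markers of 9 other cell types (41 genes in the table) summed to between 323 and 665 CPM in thymus, 297 and 2872 in adipose tissue and 458 and 6095 in arch.

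Those 41 markers were not spread evenly over the pools. In arch pool 4 all 8 fibroblast markers had reads and summed to 5998 CPM, with Dcn, the matrix proteoglycan decorin, at 2959 CPM. In arch pool 2 the sum was 1850 CPM for 5 smooth muscle markers and 932 CPM for 7 genes of macrophages and monocytes, all of them with reads. In arch pools 1 and 3 the markers of all other cell types summed to 495 and 458 CPM, within the thymus range. The smooth muscle markers among them, however, had sums of 66.6 and 14.1 CPM there, above the 0 to 3.31 CPM of the thymus pools. In arch pool 1 the smooth muscle actin gene Acta2 stood at 24.9 CPM and Dcn at 13.9 CPM, while Col1a1, Pdgfra and Myh11 were at 0 in arch pools 1 and 3. Adipose pool 1, where B-cell markers summed to 1758 CPM, had a members' share of 6.23%, inside the thymus range. Their part in the members' values was not tested. Values from a fit without arch pools 2 and 4 and adipose pool 1 are given below for the members' medians, the called members and the called genes of the lists.

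**Figure D2:**
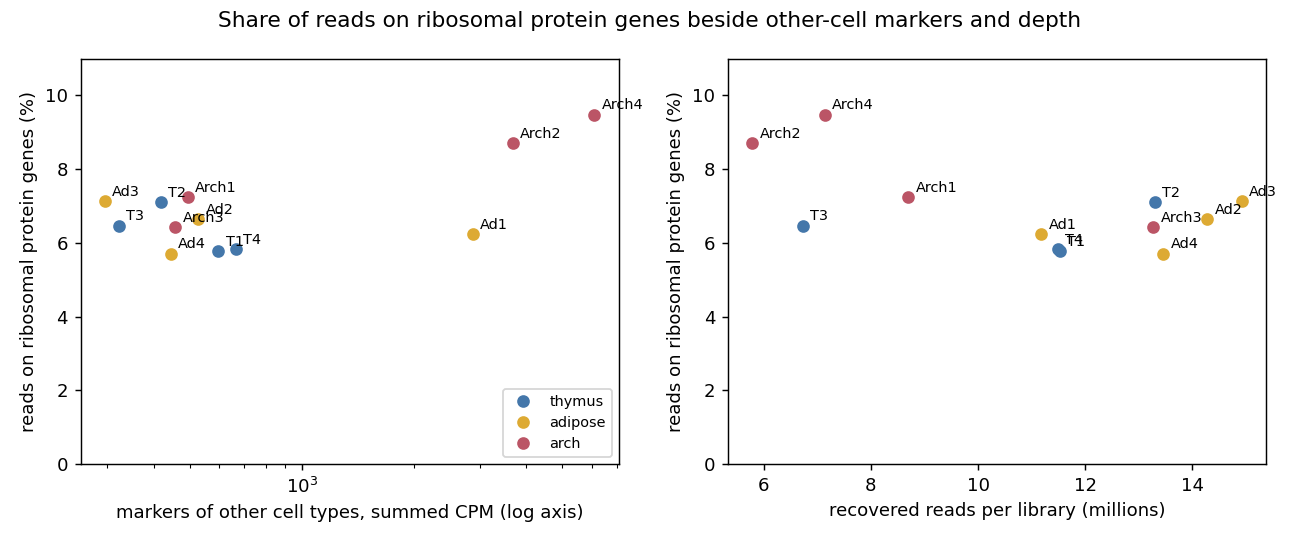
Share of reads on the 83 ribosomal protein genes (vertical axis, %) against the summed CPM of 41 markers of other cell types (left, log axis) and against recovered reads per library (right). Points are the 12 pools (T thymus, Ad adipose, Arch aortic arch); Arch2 and Arch4 have both the highest marker sums (3684 and 6095 CPM) and the highest shares, while Ad1 (2872 CPM) and the shallow T3 do not stand above the rest.

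In arch against thymus, 11 of the 81 tested members were higher and 0 lower at an adjusted p under 0.05 (limma). These 11 make 13.6% of the members, beside 3.99% of all tested genes called higher and 2.58% called lower. Abundant genes are called more often: of 1294 genes outside the family with a mean at or above that of the least abundant of 73 core members (structural proteins with a mean normalised read count of at least 1000), 14.99% were called higher and 7.496% lower. On recovered reads edgeR called 7 members higher (beside 3.05% of all tested genes) and DESeq2 27 (beside 6.81%). The share of members called by limma is near that of other abundant genes. The log2 change was above 0 for 79 of 81 members and for 56.4% of the abundant other genes, and its SD over genes was 0.16 for the core members and 1.04 for the abundant others. The median log2 change was 0.48 for the members, 0.11 for the abundant others and -0.20 for all tested genes.

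**Figure D3:**
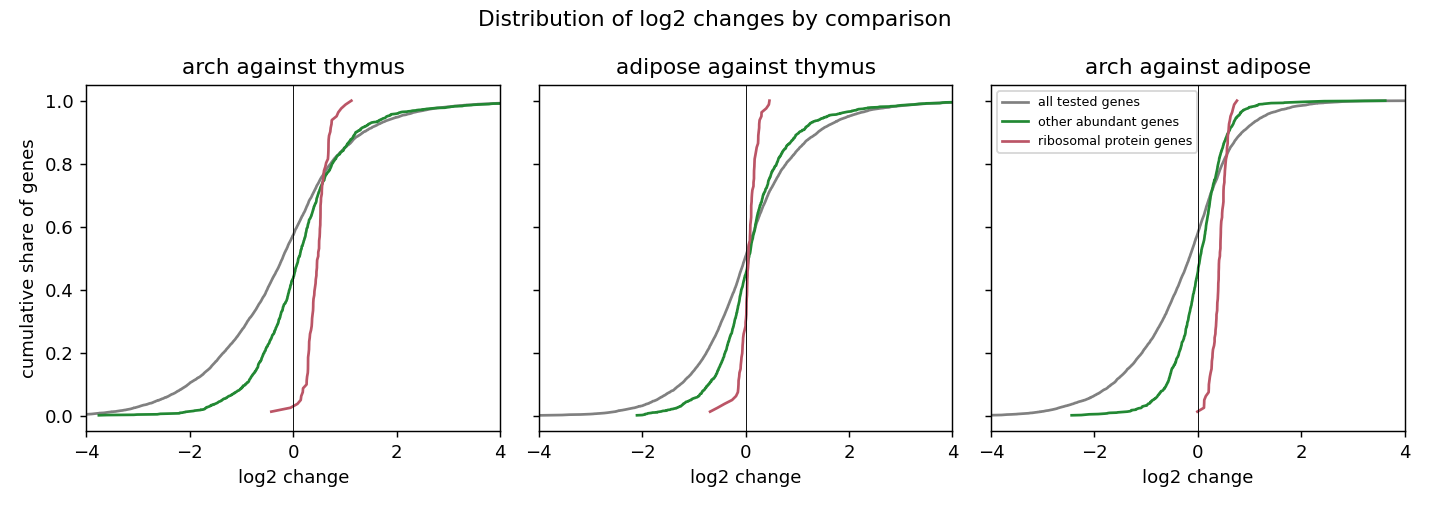
Cumulative share of genes (vertical axis) by log2 change (horizontal axis) in the 3 comparisons, for all 9106 tested genes, 1294 other abundant genes and 81 ribosomal protein genes. In both comparisons with arch the ribosomal protein curve is steep and lies almost wholly to the right of 0 (medians 0.48 and 0.43); in adipose tissue against thymus it rises at 0 (median 0.05).

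The members' level was uneven over the arch pools. The members' median stood 0.33, 0.68, 0.11 and 0.84 above the thymus mean (log2) in arch pools 1 to 4, and -0.11, 0.24, 0.04 and -0.15 in thymus pools 1 to 4. Arch pools 2 and 4 were the high ones, and arch pool 3 lay below thymus pool 2. In arch pools 1 to 4, 45, 74, 23 and 76 of the 81 members exceeded their highest thymus pool. The median of the abundant other genes was 0.10, 0.15, 0.13 and 0.15 in the same pools. Without the 3 shallow columns (thymus pool 3, arch pools 2 and 4) the members' median change was 0.23 and 0 members were called; without arch pools 2 and 4 and adipose pool 1 it was 0.21 and 1 member, Rpl15, was called.

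The medians of the genes of both subunits were close. The median log2 change in arch against thymus was 0.50 for 47 large subunit symbols and 0.46 for 34 small subunit symbols, with 8 and 3 called. In the pools the 2 medians stayed close, at 0.66 and 0.71 in arch pool 2 and 0.84 and 0.79 in arch pool 4 for large and small subunit symbols. The order by transcript length differed between the arch pools. The 24 shortest core messenger RNAs (367.5 to 614 bases) stood 0.32, 0.72, 0.04 and 0.87 above the thymus mean in arch pools 1 to 4, and the 25 longest (860 to 3706 bases) 0.35, 0.60, 0.12 and 0.69. The shortest were the higher in pools 2 and 4 and the lower in pools 1 and 3. Over the mean of the arch pools the same lengths gave changes of 0.48 and 0.44, and Spearman's rho between length and change was -0.11 across 73 genes of the same libraries. Rps29, Rpl41 and Rps28, named after their values were seen, encode some of the smallest ribosomal proteins. These read 37114, 53308 and 20144 in arch pool 4 and 15432, 24676 and 10075 in arch pool 3. The median of all tested members stood 0.84 and 0.11 above the thymus mean in the same pools. A higher level in pool 4 was thus not particular to these genes, though each of them rose more from pool 3 to pool 4 than that median did.

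**Figure D4:**
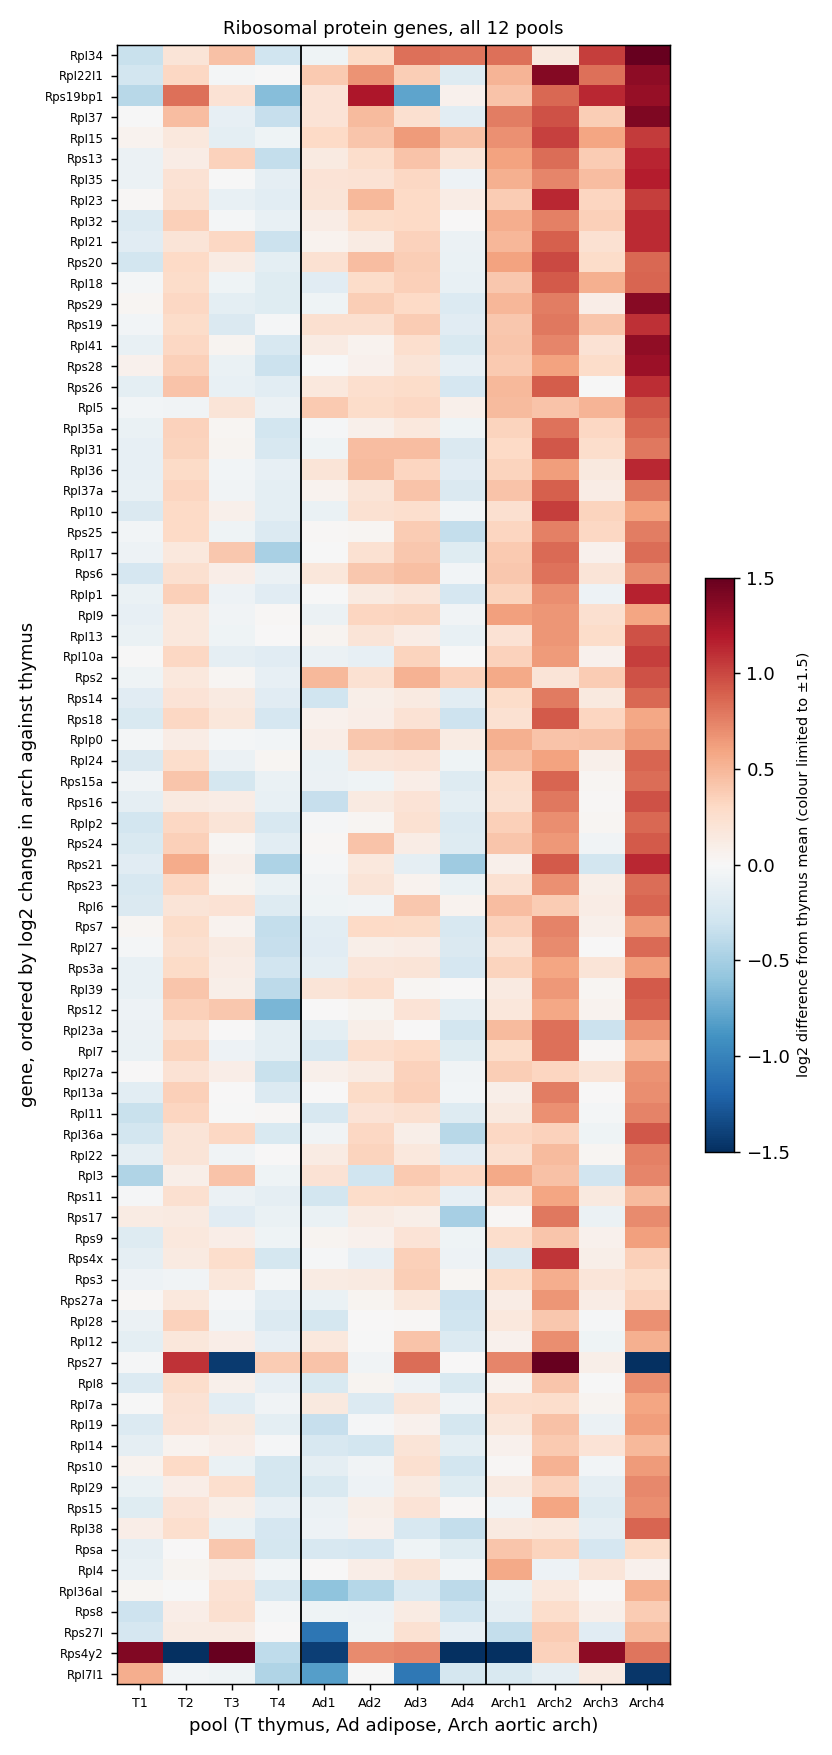
Log2 difference from the thymus mean of 79 tested ribosomal protein genes (rows, ordered by the change in arch against thymus) in each of the 12 pools (columns). Most rows are red in arch pools 2 and 4 and pale in arch pool 3 and in the adipose pools; Rpl7l1, Rps4y2 and Rps27 do not follow the others.

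Called genes can be introduced by the bases around their transcription start, since TOP messenger RNAs start with a cytosine followed by pyrimidines. RefSeq promoter entries (GRCm38.p6) matched 62 of the 83 members, with Rps3a matched under its current symbol Rps3a1. A cytosine at an annotated start followed by at least 4 C or T, on the gene's strand, was found in 13 of these 62 (21.0%) and in 3.01% of 27025 genes. A cytosine near an annotated start that opened a run of at least 6 C or T was found in 37 (59.7%) and in 29.0%. The first count thus depends on the exact base annotated as the start. The motif CCGGAAG, bound by factors of the ETS family, occurred on either strand in the 300 bases around an annotated start of 38.7% of these members and 9.93% of all genes, and AAGATGG, bound by YY1, in 16.1% and 7.28%; the 2 motifs can overlap in the letters AAG. A match is a description of these letters. The 8 called members with a single annotated start are printed 5′ to 3′ on the gene's strand, 15 bases before and 15 from the start, with a TOP-like tract at the start in capitals:
Rpl15: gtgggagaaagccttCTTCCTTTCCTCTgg
Rpl35: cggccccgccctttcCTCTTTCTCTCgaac
Rplp0: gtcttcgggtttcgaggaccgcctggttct
Rpl18: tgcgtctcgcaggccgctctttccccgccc
Rpl5: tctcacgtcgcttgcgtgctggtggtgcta
Rps13: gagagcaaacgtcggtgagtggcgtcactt
Rpl37: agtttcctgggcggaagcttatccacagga
Rpl23: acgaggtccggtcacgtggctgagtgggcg

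These windows lie at chr14:18270972-18271001 (minus strand) for Rpl15, chr2:39005117-39005146 (minus) for Rpl35 and chr5:115559452-115559481 (plus) for Rplp0. Those of Rpl18, Rpl5 and Rps13 lie at chr7:45718056-45718085 (plus), chr5:107900513-107900542 (plus) and chr7:116334176-116334205 (minus). Those of Rpl37 and Rpl23 lie at chr15:5116598-5116627 (plus) and chr11:97782425-97782454 (minus). Of the 8 annotated starts, those of Rpl15 and Rpl35 open a tract, of 13 and 11 bases. In Rpl18 a run of C and T begins just after the annotated first base, so it is not in capitals. Rps19 has several annotated starts, none with the tract, and is not printed.

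Rpl15, a protein of the large subunit, had the smallest adjusted p of the family. Its normalised read counts were 27319, 29508, 23886 and 25137 in thymus pools 1 to 4, 32576, 35263, 41023 and 35881 in adipose pools and 42499, 53503, 39872 and 54773 in arch pools. All arch and all adipose pools lay above all thymus pools, and arch pool 3 lay below the highest adipose pool. The log2 change in arch against thymus was 0.84 (SE 0.15, adjusted p = 0.00173). Rpl15 passed the test in all 8 fits that left out 1 arch or thymus pool (adjusted p 0.0018 to 0.00968) and without arch pools 2 and 4 and adipose pool 1 (log2 change 0.64, adjusted p = 0.0385), but not without the 3 shallow columns (0.59, adjusted p = 0.108). On the annotation's build its gene spans chr14:18267823-18270986.

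Rplp0 encodes the base of the ribosomal stalk, on which the acidic proteins Rplp1 and Rplp2 sit and where translation factors bind. Its counts were 54861, 60570, 54802 and 54347 in thymus, 59967, 73948, 75893 and 61237 in adipose tissue and 81485, 75515, 75872 and 87545 in arch. Every arch pool exceeded every thymus pool, and adipose pool 3 reached into the arch range. The change was 0.51 (SE 0.13, adjusted p = 0.0185), and without arch pools 2 and 4 and adipose pool 1 it was 0.49 (adjusted p = 0.0768). Rplp1 changed by 0.53 (adjusted p = 0.167) and Rplp2 by 0.48 (adjusted p = 0.293), without a call; in arch their counts ran from 16554 (pool 3) to 38776 (pool 4) and from 4019 (pool 3) to 7157 (pool 4).

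Rpl5 binds 5S ribosomal RNA together with Rpl11, and the free complex binds the p53 regulator Mdm2. Rpl5 read 25941, 25621, 30457 and 25012 in thymus, 34893, 32341, 33059 and 28188 in adipose tissue and 37086, 35986, 37926 and 50993 in arch. The arch pools lay above all others, with 3 of them close together and pool 4 apart. The change was 0.59 (SE 0.15, adjusted p = 0.0251), and 0.49 (adjusted p = 0.11) without the same 3 pools. Its partner Rpl11 read 18217 to 28726 in thymus and 22377 to 38551 in arch, which overlap, with a change of 0.39 (SE 0.20, adjusted p = 0.269). Of the 50-base words of the Rpl5 transcripts, 85.4% also occur in transcripts of other genes, so its count depends on how multiply mapping reads were treated, which is not given in the sources used here.

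Rpl18, Rpl32, Rpl35 and Rpl37 are further structural proteins of the large subunit. Rpl18 read 26951, 33414, 26275 and 24343 in thymus, 24554, 33364, 35255 and 25536 in adipose tissue and 36529, 52095, 39784 and 50487 in arch. Its arch pools lay above all others, and the change was 0.68 (SE 0.17, adjusted p = 0.0228). Rpl32 read 14216, 20988, 16146 and 15156 in thymus, 17701, 19825, 20228 and 16511 in adipose tissue and 23905, 27873, 21056 and 35684 in arch. Its lowest arch pool, pool 3, exceeded thymus pool 2 by a small margin, and the change was 0.69 (SE 0.19, adjusted p = 0.0318). Without arch pools 2 and 4 and adipose pool 1 the changes of Rpl18 and Rpl32 were 0.47 (adjusted p = 0.192) and 0.45 (adjusted p = 0.258).

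Rpl35, which sits near the exit of the peptide tunnel, read 9656, 11946, 10238 and 9377 in thymus, 11873, 11896, 12730 and 9712 in adipose tissue and 14796, 17087, 14125 and 23217 in arch. Its arch pools lay above all others, with pool 4 highest, and the change was 0.73 (SE 0.20, adjusted p = 0.0314). Of its 50-base words 95.1% are shared with other transcripts. Rpl37 read 6152, 8541, 5686 and 4875 in thymus, 7127, 8626, 7276 and 5531 in adipose tissue and 10495, 12005, 7977 and 16347 in arch. Here arch pool 3 fell below thymus pool 2, so the groups overlapped, and the change was 0.87 (SE 0.25, adjusted p = 0.0457). Without those 3 pools the changes of Rpl35 and Rpl37 were 0.49 (adjusted p = 0.214) and 0.57 (adjusted p = 0.316).

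Rpl23 lies at the face where the subunits meet and, like Rpl5, can bind Mdm2. It read 10673, 12517, 9784 and 9494 in thymus, 12118, 14743, 13005 and 11376 in adipose tissue and 13699, 23182, 13201 and 21667 in arch. Arch pools 2 and 4 stood well above pools 1 and 3, which lay within the adipose range. The change was 0.72 (SE 0.21, adjusted p = 0.0482). Without arch pools 2 and 4 and adipose pool 1 it was 0.35 (adjusted p = 0.403).

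Rps13 and Rps19, of the small subunit, were called too. Rps13 read 10200, 11659, 13734 and 8427 in thymus, 11871, 13037, 14609 and 12352 in adipose tissue and 16403, 19313, 14163 and 23998 in arch. Arch pool 3 exceeded thymus pool 3 by a small margin, and the change was 0.74 (SE 0.20, adjusted p = 0.0357). Rps19, whose human counterpart is the gene most often mutated in Diamond-Blackfan anaemia, read 13908, 17265, 12253 and 14103 in thymus, 16886, 16904, 18630 and 12729 in adipose tissue and 18936, 24679, 19069 and 30495 in arch. Its arch pools lay above all others, pools 1 and 3 only slightly, and the change was 0.68 (SE 0.20, adjusted p = 0.0451). Without arch pools 2 and 4 and adipose pool 1 the changes of Rps13 and Rps19 were 0.49 (adjusted p = 0.262) and 0.41 (adjusted p = 0.328).

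The calls of the 10 genes other than Rpl15 were lost without the 3 shallow columns (adjusted p 0.13 to 0.528) and without arch pools 2 and 4 and adipose pool 1 (0.0768 to 0.403). Their log2 changes in the latter fit stayed above 0, from 0.35 for Rpl23 to 0.57 for Rpl37. These 10 kept their call in 2 to 4 of the 8 fits that left out 1 arch or thymus pool: 2 for Rpl23 and Rpl37, and 4 for Rpl5 and Rplp0. On recovered reads edgeR called 6 of the 10, with an adjusted p of 0.0502 for Rpl23, 0.057 for Rpl37 and 0.0578 for Rps19, and DESeq2 called all 10.

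**Figure D5:**
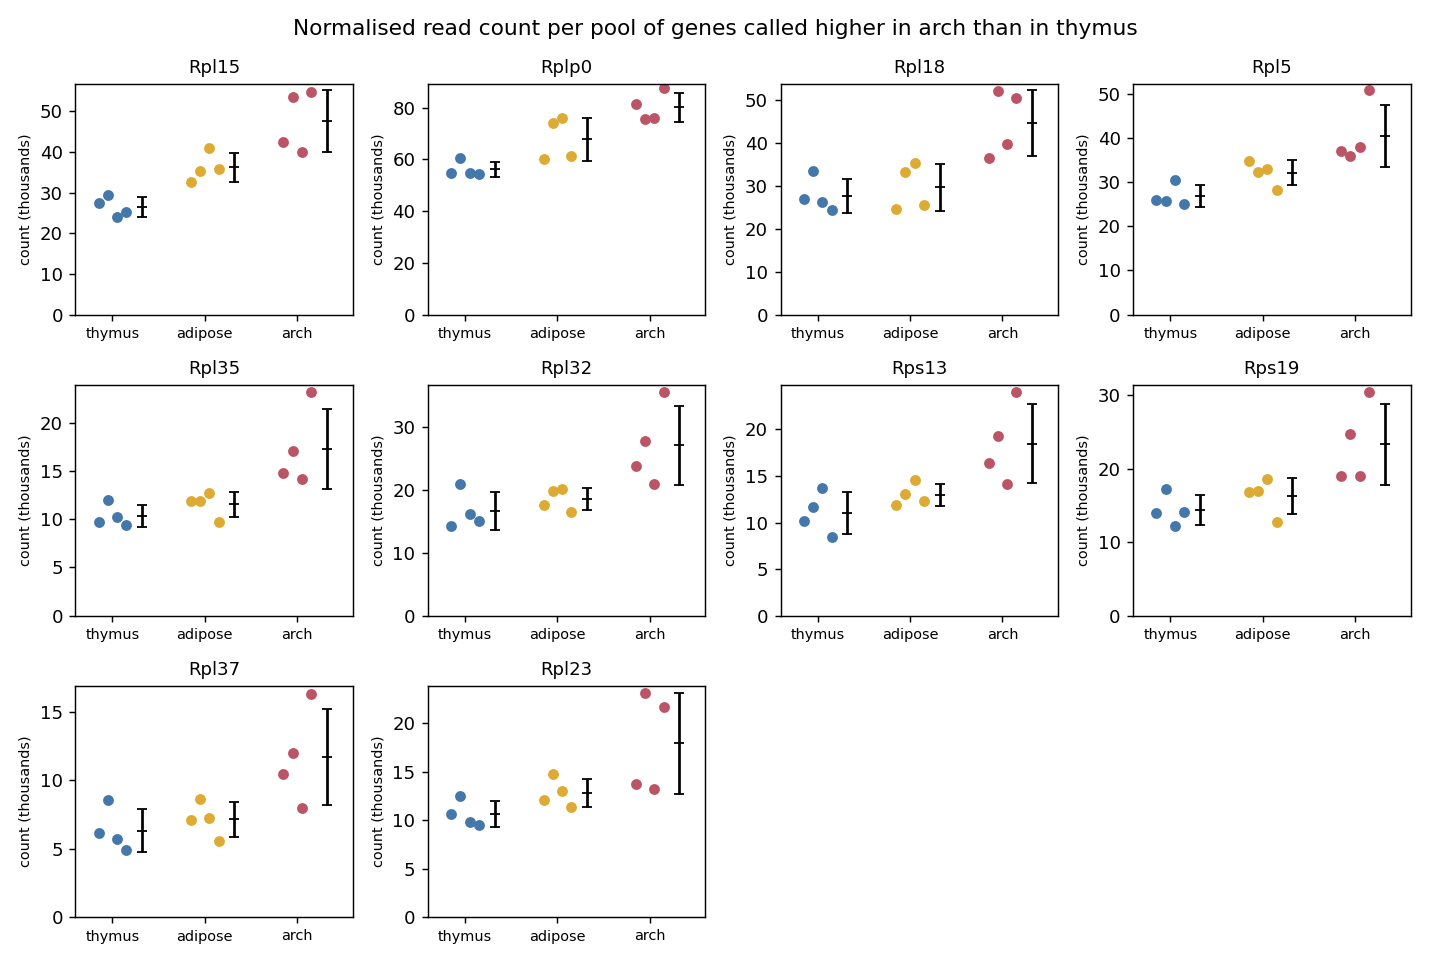
Normalised read count (axes in units of 1000, from 0) of 10 of the 11 ribosomal protein genes called higher in arch than in thymus, in order of p. Points are pools 1 to 4 from left to right in each tissue and bars the mean ± SD; Rpl15 is the only panel of the 10 in which all adipose pools also lie above all thymus pools.

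Whether the pools of 2 tissues overlap gives a view that uses no model. In 17 members all 4 arch pools exceeded all 4 thymus pools (21.0% of the 81 tested), beside 6.6% of all tested genes and 19.7% of the abundant genes outside the family; 0 members lay wholly below, beside 6.64%. With only arch pools 1 and 3 it was 19 members (23.5%), beside 14.0% of all tested genes. The share of abundant genes was not counted for those pools. The 17 hold 10 of the 11 called members, all but Rpl37, and among the others are Rpl9, Rpl13, Rpl22l1, Rps2, Rps3 and Rps25. Rps2 read 18554, 21525, 19738 and 17831 in thymus and 28811, 22058, 25232 and 37478 in arch, with a change of 0.52 (limma adjusted p = 0.0762, DESeq2 adjusted p = 0.0125).

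In adipose tissue against thymus 0 members were called in either direction by limma, beside 2.17% of all tested genes called higher and 0.67% lower. Of the 1294 abundant genes outside the family, 9.51% were called higher and 3.55% lower. At an unadjusted p under 0.05, 3 were higher and 0 lower; edgeR called 0 and DESeq2 1 higher. The median log2 change was 0.05, with 59 of 81 above 0, and it was -0.04 with quantile normalisation and -0.0015 without thymus pool 4. In Rpl15 and Rps2 all adipose pools lay above all thymus pools (2.47% of members, beside 5.48% of all tested genes), and in 0 members below (beside 4.99%). Rpl15 changed by 0.45 (SE 0.15, adjusted p = 0.143). Rps2 read 27210, 22777, 27840 and 24695 in adipose tissue and changed by 0.40 (SE 0.17, adjusted p = 0.325).

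In arch against adipose tissue 0 members were called by limma, where 0.0988% of all tested genes were called higher and 0.0769% lower. Of the 1294 abundant genes outside the family, 0.696% were called higher and 0.386% lower. The median log2 change was 0.43 with 80 of 81 above 0, beside 0.04 for the abundant other genes. At an unadjusted p under 0.05, 35 members were higher and 0 lower; edgeR called 0 and DESeq2 1 higher. In 12 members all arch pools exceeded all adipose pools (14.8%, beside 2.46% of all tested genes), among them Rpl5, Rpl13, Rpl18, Rpl32, Rpl35 and Rps19, and in 0 the reverse (beside 2.89%). The share of abundant genes without overlap was above that of all genes in arch against thymus, and was not counted for this comparison. Without arch pools 2 and 4 and adipose pool 1 the median was 0.14. The comparisons with thymus share the thymus pools, and those with arch the arch pools, so they are not independent.

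Of the 5 paralogs tested, 3 had a log2 change above 0 in arch against thymus and 0 were called by limma. Rpl22l1, the paralog of Rpl22, read 645, 979, 769 and 786 in thymus, 1042, 1265, 1019 and 684 in adipose tissue and 1131, 2073, 1404 and 2018 in arch. Its arch pools lay above its thymus pools, and the change was 1.01 (SE 0.46, adjusted p = 0.196). DESeq2 called it, with a change of 1.07 (adjusted p = 0.0492). Rpl22 itself, which mouse αβ T cells need to develop, read 3689 to 4654 in thymus and 4137 to 6900 in arch, which overlap, and changed by 0.37 (SE 0.25, adjusted p = 0.394). Per kilobase of annotated messenger RNA, Rpl22 stood at 1992 and Rpl22l1 at 1476 in thymus, and at 2623 and 3077 in arch.

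Rpl36al, Rps27l and Rpl7l1 had lower mean counts in adipose tissue than in thymus. Without arch pools 2 and 4 and adipose pool 1 their changes in adipose tissue against thymus were -0.34, 0.02 and -0.45. For Rps27l the lower level was thus not seen without adipose pool 1. Rpl36al read 6987, 6832, 7941 and 5818 in thymus, 4490, 5096, 5962 and 5219 in adipose tissue and 6414, 7639, 6964 and 9961 in arch. Adipose pool 3 was the only adipose pool to reach the thymus range, and the change in adipose tissue against thymus was -0.41 (SE 0.22, adjusted p = 0.484). Its counterpart Rpl36a changed by -0.02 in adipose tissue and 0.38 in arch against thymus (adjusted p = 0.993 and 0.456). Rps27l, a target of p53, read 3156 to 4126 in thymus, 1767 to 4440 in adipose tissue and 2933 to 5257 in arch, and its change in arch was 0.08 (adjusted p = 0.907), a sign that turned under 4 other settings and in 3 fits that left out a pool. Rpl7l1 had the lowest change of the family in arch, at -0.42 (SE 0.43, adjusted p = 0.605), with 1536 to 3084 in thymus and 753 to 2309 in arch.

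Several members were scarce in all tissues. Rpl3l, whose paralog Rpl3 helps form the catalytic centre and which is known from striated muscle, had reads in 3 pools only (154 and 84 in adipose pools 1 and 4, 254 in arch pool 1). Rps4y2 read 0 to 443 in thymus and 1 to 327 in arch. Rps19bp1 read 403 to 1149 in thymus and 866 to 1601 in arch, a change of 0.93 (SE 0.58, adjusted p = 0.363).

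Rpl30, Rpl34 and Rps27, which encode obligate structural proteins, stood far under their fellows. Their thymus means were 56 ± 38.4, 102 ± 32.4 and 87 ± 65.2 (SD, n = 4), or 98.2, 164 and 218 per kilobase, where the 73 core members ran from 1992 to 65743 per kilobase with a median of 19106. Rpl34 had the highest change of the family in arch against thymus, 1.12 (SE 0.92, adjusted p = 0.499), with 75 to 141 in thymus and 112 to 644 in arch. The share of 50-base words found in other transcripts was 72.8%, 10.97% and 46.2% for Rpl30, Rpl34 and Rps27, and 35.8% at the median of the 83 members. Core members with larger shares, such as Rpl35, had counts far above these, and the rule by which the authors' counter treated these 3 genes is not given in the sources used here. Rpl30, Rpl34 and Rps27 are left out of the statements over core members. The share of reads includes all of them, and the medians over tested members include Rpl34 and Rps27.

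Per kilobase of annotated messenger RNA, Rplp0 was the most abundant member in thymus (65743), adipose tissue (79346) and arch (93799). Rps14 stood at 52347 per kilobase in thymus and Rpl18 at 51050, neighbours that do not differ beyond the spread of their pools. Rpl22 was lowest of the core members in all 3 tissues. Over the 73 core members the thymus median per kilobase was 19106, the adipose median 20384 and the arch median 27743. The lengths are medians over annotated coding transcripts and so carry the annotation's choice of transcripts.

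The members with known roles named next were not called by limma in any comparison. Rps6, the substrate of S6 kinase, read 20155, 28486, 25816 and 22739 in thymus and 31792, 42278, 27607 and 39390 in arch, with a change of 0.53 (SE 0.18, adjusted p = 0.0823; DESeq2 adjusted p = 0.0248). Rpl10, which completes the large subunit late in assembly, differed by 0.55 (SE 0.18, adjusted p = 0.0819), with arch pool 2 highest at 51329. Rpl10 was called by DESeq2 (adjusted p = 0.0242) and by limma with pool number as a block (adjusted p = 0.0436). Rps27a, made as a fusion with ubiquitin, changed by 0.31 (adjusted p = 0.298), and Rpsa, also known as the laminin receptor, by 0.19 (adjusted p = 0.576). Rpl38, known from mouse tail and skeleton mutants, changed by 0.26 (adjusted p = 0.614), with arch pool 4 at 7533 and the other arch pools between 3725 and 4584. Rpl3 changed by 0.37 (adjusted p = 0.408), Rpl39, which lines the exit tunnel, by 0.43 (adjusted p = 0.314), and Rpl4 by 0.18 (adjusted p = 0.499) with its highest arch value in pool 1 (52601).

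Across the 12 pools the members followed one another closely. The Pearson correlation of a member's log2 value with the members' median was at least 0.7 for 69 of 81 and 0.90 at the median, a description over pools that share depth and composition, in which each member adds to the median. The lowest were Rpl7l1 (-0.45), Rps27 (-0.01), Rps4y2 (0.12) and Rpl4 (0.28). Among the 5 highest outside the family were Fau (0.94), Btf3 (0.92), Ndufa2 (0.92) and Uqcrh (0.90). Fau encodes a ribosomal protein fused to a ubiquitin-like protein, Btf3 a subunit of the nascent chain complex, and Ndufa2 and Uqcrh subunits of the respiratory chain.

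Other genes of ribosome production were examined as lists. Of 3 ribosomal proteins with other symbols 0 were called in arch against thymus; Fau changed by 0.58 (SE 0.19, adjusted p = 0.0762) and Gnb2l1, which encodes Rack1, by 0.27 (adjusted p = 0.493). Of 14 tested genes outside the ribosome with TOP messenger RNAs, 2 (Npm1 and Tpt1) were higher and 0 lower in arch, with a median of 0.34. Beside them, 3.99% of all tested genes and 14.99% of the abundant genes outside the family were called higher in arch. Npm1, the nucleolar protein nucleophosmin, had a thymus mean of 14361 ± 2415, an adipose mean of 20486 ± 2558 and an arch mean of 22197 ± 2322, a change of 0.64 in arch (adjusted p = 0.0325) and 0.52 in adipose tissue (adjusted p = 0.141). Tpt1 rose by 0.60 (SE 0.17, adjusted p = 0.0443) in arch. Without arch pools 2 and 4 and adipose pool 1 the arch changes of Npm1 and Tpt1 were 0.51 (adjusted p = 0.196) and 0.38 (adjusted p = 0.315). In adipose tissue 0 of the 14 were called, with a median of 0.16.

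Of 12 regulators of TOP messenger RNAs 1 was called higher in arch against thymus and 0 lower, with a median of -0.0046. Beside them, 3.99% of all tested genes and 14.99% of the abundant genes outside the family were called higher. The called regulator was Rheb, the GTPase that activates mTOR complex 1, with a thymus mean of 3278 ± 1177 (SD, n = 4), an adipose mean of 6327 ± 2167 and an arch mean of 9709 ± 547. Its change was 1.64 (SE 0.30, adjusted p = 0.00218) in arch and 0.97 (SE 0.30, adjusted p = 0.109) in adipose tissue. Without arch pools 2 and 4 and adipose pool 1 the arch change of Rheb was 1.69 (adjusted p = 0.0223). Next by p in arch were Tsc2 and Tsc1, neither called, with changes of 3.15 (SE 1.03, adjusted p = 0.0757) and 1.51 (SE 0.50, adjusted p = 0.0772). In adipose tissue these changed by 2.97 (adjusted p = 0.165) and 1.40 (adjusted p = 0.181). Tsc2 was scarce in thymus, with a mean of 111 ± 147. Of 9 chaperones of ribosomal proteins and nascent chains 0 were called, with a median of 0.52 in arch; Btf3 changed by 0.72 (adjusted p = 0.0583) and Naca by 0.71 (adjusted p = 0.0723).

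Assembly factors and RNA polymerase I genes were the last lists. Of 29 tested assembly factors 0 were higher and 1 lower in arch against thymus (median 0.41), and 1 higher and 1 lower in adipose tissue against thymus (median 0.66). The lower gene was Wdr12, of the complex that processes large subunit ribosomal RNA, in both: its thymus mean was 5962 ± 784, its adipose mean 2365 ± 664 and its arch mean 1890 ± 591, and it fell by 1.69 (SE 0.32, adjusted p = 0.00286) in arch and by 1.36 (SE 0.32, adjusted p = 0.0226) in adipose tissue. The higher gene in adipose tissue was Ncl, nucleolin, with a change of 0.92 (SE 0.24, adjusted p = 0.0373), and 0.66 (adjusted p = 0.1) in arch. These counts stand beside 2.58% of all tested genes called lower in arch and 2.17% called higher in adipose tissue. Without arch pools 2 and 4 and adipose pool 1 the change of Wdr12 was -1.78 (adjusted p = 0.00367) in arch and -1.17 (adjusted p = 0.0249) in adipose tissue, and that of Ncl in adipose tissue 0.80 (adjusted p = 0.107). Of 14 genes of RNA polymerase I transcription 0 were called in either comparison with thymus, with medians of -0.16 in arch and 0.05 in adipose tissue. In arch against adipose tissue 0 genes of these 6 lists were called.

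The scale of the comparison bears on these values. Scaling by total counts in place of the deposited scaling moved the median of all tested genes in arch against thymus from -0.20 to -0.35 and that of the members from 0.48 to 0.33, so that the members stood 0.69 and 0.68 above the median of all genes; it left 1 member called, Rpl15. With quantile normalisation the members stood 0.31 above it, with 1 call. The number of the 81 members with a change above 0 in arch against thymus was 79 with the deposited scaling, 77 with total counts, 74 with quantile normalisation, 72 without the 3 shallow columns and 69 without arch pools 2 and 4 and adipose pool 1.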

How the data were processed

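The authors deposited 1 normalised signal per gene and pool (13765 genes, 12 columns), with the 1 to 3 libraries of a pool combined. FastQC 0.11.5, STAR 2.6.0c and GRCm38 are named per the submitters' processing notes; the counter, its annotation and its treatment of multiply mapping reads have no statement in those notes or labels. Each value was a whole multiple of its column's smallest step, so whole reads were recovered (100% of values whole within 0.01), and the deposited steps equal median-ratio size factors of these reads.

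Normalised read counts were tested as log2(value + 20) for the 9106 genes that reached 100 in 4 or more columns, over all 12 columns, with limma 3.58.1 (R 4.3.3, intensity trend) and Benjamini-Hochberg adjustment; log2 changes are on that scale and understate low genes. The fit was tested on simulated data. Alternatives used edgeR 4.0.16 and DESeq2 1.42.0 on recovered reads, other pseudocounts, filters and scalings, and fewer pools. The labels do not say that pools came from separate days, so p-values measure the spread between pools. The shares given are of recovered reads; at the members' 871521 to 2129916 reads a pool, counting error is small beside pool spread.

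Named genes were all called members, the 3 highest and 3 lowest changes per comparison, a preset list of members with known roles, up to 3 genes of smallest p per list and the 5 genes most correlated with the members' median; Rpl9, Rpl13, Rps3, Rps14, Rps25, Rps28, Rps29, Rpl30 and Rpl41 were named after their values were seen. Some single genes are not reported here, though fits and counts include them. Members and lists were chosen with earlier results of these data known. Lengths, positions and 50-base words are from GENCODE M21 (GRCm38), and promoters from RefSeq.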

Additional observations from a re-analysis of the deposited data

Results flagged for a closer look

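In 5 of 105 groups of 4 pools examined (33 named members, the share of reads and the members' median, in 3 tissues), 1 pool lay far from the other 3; chance gives about 1 in 20. In arch pool 4, Rpl5 read 50993 where the other arch pools read 35986 to 37926. In thymus pool 3, Rpl5 read 30457 beside 25012 to 25941. In thymus pool 2, Rplp0 read 60570 beside 54347 to 54861 and Rplp1 22292 beside 15475 to 16484. Rpl3l read 254 in arch pool 1 and 0 in the others.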

How the results depend on the processing

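The count of 11 members called higher in arch against thymus was 7 with edgeR, 27 with DESeq2, 7 with a pseudocount of 1, 5 without a filter, 1 with total-count scaling, 1 with quantile normalisation, 0 without the 3 shallow columns and 4 from only the 8 columns compared. It ranged from 1 to 21 when 1 pool was left out: 1 without thymus pool 1, thymus pool 4 or arch pool 4, 4 without thymus pool 3, 5 without arch pool 2, 7 without thymus pool 2 or adipose pool 3, and 21 without arch pool 3. Added after seeing the data, it was 0 without an intensity trend, 0 when scaled to the members' own median and 1 without arch pools 2 and 4 and adipose pool 1, where the medians moved to 0.21 (arch against thymus) and 0.14 (arch against adipose tissue). DESeq2 called 1 member higher in adipose tissue against thymus and 1 in arch against adipose tissue. The cause was not tested, apart from fewer pools or more genes tested where the setting itself sets that. In 0 settings was a member called lower. With pool number as a replicate block 11 members were called, 9 of them shared with the fit without it. Under the block Rps19 was not called (adjusted p = 0.055) and Rpl10 was (0.0436). Same-numbered pools correlated at -0.03 to 0.08. In adipose tissue against thymus these values were 0.08, 0.06 and 0.05 for pools 1, 2 and 4. The highest with another number were 0.01, 0.02 and 0.005. In pool 3 they were -0.03 and 0.07. Correlations this small over 4 pools cannot decide whether the numbers pair the pools.

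Signs in arch against thymus turned for members near 0. With quantile normalisation the change was 0.76 for Rps4y2, -0.0241 for Rps27l, -0.0294 for Rpl36al, -0.091 for Rpl4 and -0.0846 for Rpsa, and in arch against adipose tissue -0.0115 for Rps2. With a pseudocount of 1 it was 0.16 for Rps4y2 and -0.43 for Rps27. With total counts it was -0.0721 for Rps27l. Without the 3 shallow columns it was -0.22 for Rps27l, -0.073 for Rps27 and -0.0336 for Rpl38; without arch pools 2 and 4 and adipose pool 1 it was -0.26 for Rps27l, -0.0361 for Rpl36al and -0.0022 for Rpl38. Leaving out 1 pool gave -0.98 to 0.83 for Rps4y2, -0.0491 to 0.23 for Rps27l, -0.45 to 1.12 for Rps27 and, in arch against adipose tissue, -0.0189 to 0.24 for Rps2.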
